A study of Mus musculus with 10 samples.

Results

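The mRNAs described here are encoded by the mitochondrial genome itself rather than by chromosomes of the nucleus. The mRNAs taken by name were *mt-Nd1*, *mt-Nd2*, *mt-Nd4*, *mt-Nd5*, *mt-Nd6*, *mt-Cytb*, *mt-Co1*, *mt-Co2*, *mt-Co3* and *mt-Atp6*. They are 10 of the 13 mRNAs and 10 of all 37 genes annotated on mouse mitochondrial DNA, and 10 of the 51717 genes quantified. All 10 passed the filter on low counts, which kept 12381 genes for testing. RNA-seq compared granulocyte-macrophage progenitors (GMPs), the bone marrow cells from which neutrophils and monocytes arise, after loss of *Mpc2* with WT GMPs. *Mpc2* encodes a subunit of the mitochondrial pyruvate carrier, which imports pyruvate into mitochondria. There were 5 WT and 5 recent *Mpc2* KO samples, and the labels number them as separate biological replicates.

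All samples were CD45.2+ GMPs sorted from bone marrow of chimeric mice, with irradiated CD45.1 hosts, and the strain was labelled C57Bl6/N and the sex male. WT cells carried ROSA26 CreER+/-, and recent KO cells were Mpc2fl/fl; ROSA26 CreER+/-, so that Cre was present in both groups. CreER expressed from ROSA26 is not restricted to myeloid cells. Both groups were fed tamoxifen chow for 2 wk and were taken at its end, so tamoxifen exposure was shared too. The ages of the mice were not given in the sources used here. Each WT sample came from 1 mouse, whereas RNA of each recent KO sample was drawn from 2 mice pooled together, so pooling cannot be told apart from genotype. Samples held 14033776 to 19745405 estimated reads, with a median of 18121943 in WT and 15839904 in recent KO. *Mpc2* itself averaged 89.1 ± 26.9 CPM (reads scaled to a common library size after TMM normalization) in the WT group and 32.2 ± 10.2 CPM after deletion (SD, n = 5 each), a log2 fold change of -1.46 with adjusted p = 0.0156 in edgeR's quasi-likelihood test, and the groups did not overlap.

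Mitochondrial DNA is a small circle present in many copies per cell. It is transcribed into long RNAs that cover nearly a whole strand, and the transfer RNAs that punctuate these RNAs are cut out, which frees the mRNAs and ribosomal RNAs between them. Most of the mRNAs have hardly any untranslated sequence and receive short poly(A) tails inside the organelle, and all are translated there. Each encodes a membrane subunit of the respiratory chain or of ATP synthase, which are completed by many more subunits imported from the cytosol. GMPs, like other dividing progenitors, draw on this chain for ATP and for the oxidation of cofactors used in the TCA cycle.

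The annotated 3′ ends of the 10 genes are printed below. Oligo-dT priming, the first step of the library kit used, starts at the poly(A) tail. Where a tail joins, and whether each of the 10 mRNAs (*mt-Nd6* among them) carries one, was not measured here. An mRNA may also run on past its annotated end. The bases printed are the last 30 of each transcript in GENCODE M21 on build GRCm38, 5′ to 3′. The stop codon, or what the gene holds of it, is in capitals.
mt-Nd1: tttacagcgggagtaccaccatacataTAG
mt-Nd2: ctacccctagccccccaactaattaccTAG
mt-Nd4: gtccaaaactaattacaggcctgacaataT
mt-Nd5: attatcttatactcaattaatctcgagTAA
mt-Nd6: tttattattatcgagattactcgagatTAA
mt-Cytb: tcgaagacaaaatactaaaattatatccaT
mt-Co1: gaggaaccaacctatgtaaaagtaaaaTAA
mt-Co2: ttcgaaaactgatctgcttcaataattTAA
mt-Co3: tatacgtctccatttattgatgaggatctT
mt-Atp6: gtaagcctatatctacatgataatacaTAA
In 7 of the 10 the stop codon is complete. In the other 3, *mt-Nd4*, *mt-Cytb* and *mt-Co3*, the annotated gene ends on a lone T, and the A residues of the tail complete the codon. 

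On the M21 map, 9 of the 10 genes lie on the plus strand and *mt-Nd6* (chrM:13552-14070) alone lies on the minus strand, where it overlaps the end of *mt-Nd5* (chrM:11742-13565) by 14 bases. The other genes of complex I are *mt-Nd1* at chrM:2751-3707, *mt-Nd2* at chrM:3914-4951 and *mt-Nd4* at chrM:10167-11544. The complex IV genes are *mt-Co1* at chrM:5328-6872, *mt-Co2* at chrM:7013-7696 and *mt-Co3* at chrM:8607-9390, and *mt-Atp6* (chrM:7927-8607) and *mt-Cytb* (chrM:14145-15288) complete the set. All are single-exon genes. *mt-Nd6* also stands apart in base composition, with 22.2% A and no run of A longer than 3 bases. The other 9 hold 29.5% to 36.9% A, and their longest runs of A span 4 to 8 bases. The library kit does not mark strand, so reads of *mt-Nd6* and of plus-strand RNA across it cannot be told apart, in the overlap or beyond. Between the end of *mt-Nd5* and the start of *mt-Cytb* no plus-strand gene is annotated, and plus-strand RNA there could count toward *mt-Nd6*. The part of such RNA in the levels of *mt-Nd6* was not tested.

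The 10 mRNAs took between 1.32% and 1.91% of all estimated reads of a sample. In WT samples 1 to 5 the share was 1.32%, 1.51%, 1.69%, 1.61% and 1.49%, with a mean of 1.52% ± 0.138 (SD, n = 5). In recent KO samples 1 to 5 it was 1.86%, 1.57%, 1.91%, 1.77% and 1.66%, with a mean of 1.75% ± 0.140 (SD, n = 5). Recent KO samples 1, 3 and 4 lay above every WT sample, recent KO samples 2 and 5 lay among the WT samples, and the lowest share of all belonged to WT sample 1. The log2 ratio of the group means was 0.20. As a sum over chosen genes the share was not given a test. Part of this ratio is shared by genes at large, because on the same scale of library size alone the median log2 fold change over all 12381 genes was 0.069. After TMM normalization, which removes that shift, the summed level averaged 15770 ± 2203 CPM over WT samples and 17200 ± 1556 CPM over recent KO samples, a log2 ratio of 0.13, and 2 recent KO samples lay above all WT samples. In TPM, which accounts for transcript length, the share was 2.32% ± 0.148 in WT and 2.58% ± 0.128 in recent KO samples, and 4 of 5 recent KO samples lay above the highest WT sample. In RNA from bulk samples, fewer cells of a type and less RNA per cell cannot be told apart, and the same holds for more mitochondria and more RNA per mitochondrion.

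Levels were compared between genes in TPM, reads per effective length scaled to a fixed total. The order of the 10 in WT samples followed the enzyme complexes only loosely. *mt-Co3*, a core subunit of cytochrome c oxidase (complex IV), was highest at 8217 ± 771 TPM (SD, n = 5). *mt-Atp6*, whose product forms part of the proton channel of ATP synthase, followed at 6617 ± 571 TPM, and *mt-Co2*, which receives electrons from cytochrome c, at 3580 ± 266 TPM. The WT ranges of *mt-Co3* and *mt-Atp6* overlapped, although *mt-Co3* was the higher of the pair in 10 of 10 samples. *mt-Cytb*, the only subunit of complex III made in mitochondria, stood at 1627 ± 85.4 TPM, ahead of *mt-Nd1* at 1135 ± 53.8 TPM and *mt-Co1*, the catalytic subunit of complex IV, at 1012 ± 233 TPM. *mt-Nd1* and *mt-Co1* were not separated beyond their spread.

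The remaining genes of complex I (NADH dehydrogenase), all subunits of its membrane arm, formed the lower end of the order. In WT samples *mt-Nd6* averaged 324 ± 60.9 TPM, *mt-Nd4* 295 ± 14.4 TPM, *mt-Nd2* 240 ± 17.7 TPM and *mt-Nd5* 108 ± 3.85 TPM. *mt-Nd6* and *mt-Nd4* overlapped in range and exchanged places in recent KO samples, at 281 ± 21.5 and 331 ± 19.2 TPM, which was the only change in the order. *mt-Nd2* and *mt-Nd5* were each separated from their neighbours in the WT order. From *mt-Co3* to *mt-Nd5* the mean TPM spanned 75.9-fold in WT and 81.7-fold in recent KO samples. These levels depend on Salmon's effective length, which was 193 to 243 bases for *mt-Nd6*, annotated at 519 bases, and 1480 to 1543 bases for *mt-Nd5*, annotated at 1824 bases.

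**Figure D1:**
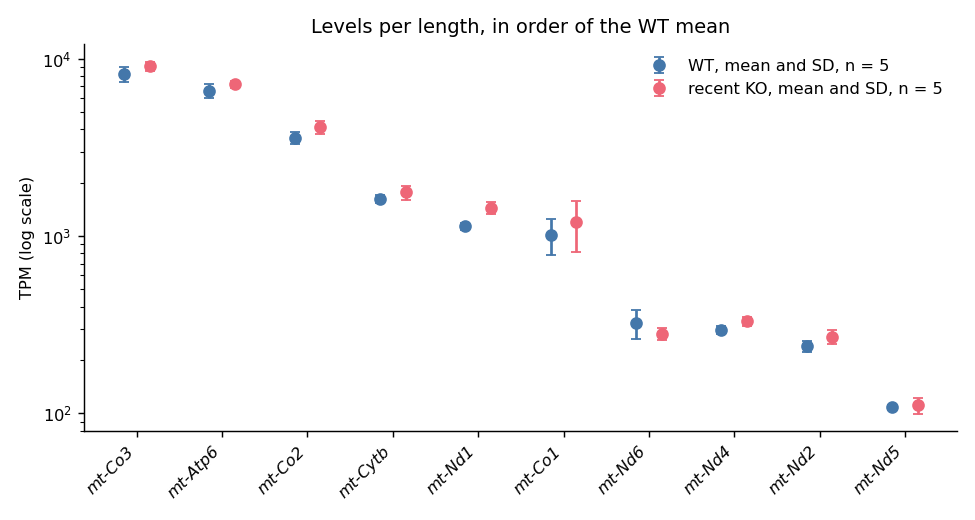
TPM of the 10 mitochondrial mRNAs on a log scale (y axis), ordered along the x axis by the WT mean; points are group means and bars are SD over 5 samples, blue for WT and red for recent KO. The means fall from 8217 TPM for mt-Co3 to 108 TPM for mt-Nd5 in WT samples, and mt-Nd6 and mt-Nd4 are the only neighbours whose order differs between the groups.

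Of the 10 mRNAs, 0 differed between recent KO and WT GMPs at an adjusted p under 0.05 in edgeR's quasi-likelihood test, against 0.331% of all genes tested (15 higher and 26 lower). One, *mt-Nd1*, had an unadjusted p under 0.05, which 10.2% of all genes had. DESeq2 also called 0 of the 10, and limma on TPM called 1, *mt-Nd1*. A log2 fold change above 0 was fitted for 8 of the 10, against 49.6% of all genes, and the exceptions were *mt-Nd5* and *mt-Nd6*. The median log2 fold change of the 10 was 0.11, beside -0.0018 for all genes tested. In normalized CPM the samples of both groups overlapped for every one of the 10, and 2.43% of all genes did not overlap. The fit also bounds the size of a difference: for 9 of the 10 the 95% interval lay within 1.5-fold in either direction, and the exception was *mt-Co1*.

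**Figure D2:**
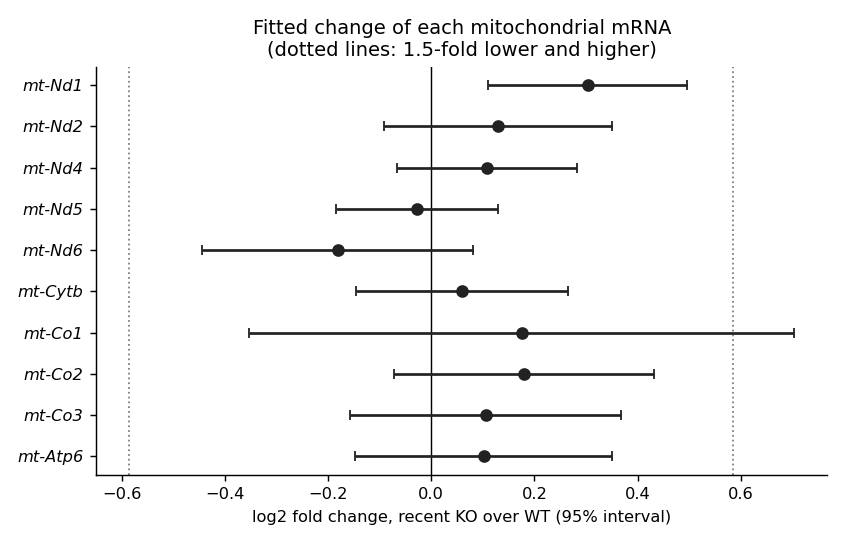
Log2 fold change fitted by edgeR, recent KO relative to WT, for each mitochondrial mRNA (x axis; genes on the y axis); points are estimates, bars are 95% intervals from 5 samples per group, and dotted lines mark 1.5-fold either way. Of the points, 8 lie above 0, only the interval of mt-Nd1 (0.11 to 0.50) excludes 0, and only that of mt-Co1 passes a dotted line.

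*mt-Nd1*, which encodes the membrane subunit next to the site where complex I hands electrons to ubiquinone, had the largest fitted change. In WT samples 1 to 5 its level was 833, 1002, 1102, 997 and 962 CPM after TMM normalization. In recent KO samples 1 to 5 it was 1390, 1150, 1277, 1161 and 1064 CPM. Recent KO samples 1 to 4 exceeded every WT sample, and recent KO sample 5 fell below WT sample 3. The means were 979 ± 97.1 and 1208 ± 127 CPM (SD, n = 5 each), a log2 fold change of 0.30 (SE 0.090, 95% interval 0.11 to 0.50). The adjusted p was 0.226 over all genes, and it ranged from 0.0443 to 0.470 over the alternative settings. It fell below 0.05 with library size alone as the normalization (0.0443) and in limma on TPM (0.0493 and 0.0474 for the larger and the smaller pseudocount). In these settings the median log2 fold change over all genes was itself above 0, at 0.069, 0.048 and 0.054, beside -0.0018 in the main fit.

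Per length, *mt-Nd1* did not overlap between the groups, in TPM that were not corrected for this shift of all genes. Its TPM was 1081, 1155, 1199, 1078 and 1163 in WT samples 1 to 5 and 1503, 1478, 1553, 1408 and 1284 in recent KO samples 1 to 5. *mt-Nd4*, another proton-pumping subunit of complex I, came next in this measure. It ranged from 277 to 309.9 TPM in WT and from 310.4 to 356 TPM in recent KO samples, so its groups were separated by a margin smaller than the spread within either. These were 2 of the 10 mRNAs, both higher in recent KO samples, whereas every recent KO sample exceeded every WT sample in TPM for 1.31% of all genes tested and 1.86% did not overlap in either direction. In normalized CPM *mt-Nd4* ranged from 371 to 467 in WT and from 403 to 521 in recent KO samples and overlapped, with a log2 fold change of 0.11 (SE 0.081, adjusted p = 0.717, edgeR).

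The part of *mt-Nd1* in the reads of the 10 mRNAs themselves, a measure that normalization between libraries does not affect, was 6.51%, 6.46%, 6.07%, 5.65% and 6.55% in WT samples 1 to 5 and 7.27%, 7.48%, 6.96%, 6.79% and 6.62% in recent KO samples 1 to 5. All recent KO values of this part were above all WT values, and *mt-Nd1* was the only one of the 10 for which this was so. The part also depends on the other mRNAs. *mt-Co1* held 5.16% of these reads in recent KO sample 5, against 11.9% in WT samples 1 and 5. Its low level there raises the part of *mt-Nd1* in recent KO sample 5, so the separation cannot be read apart from *mt-Co1*. Genes outside the 10 have no such part to set beside it. Its ratio to *mt-Nd2*, the neighbouring mRNA on the DNA, was 4.22 ± 0.338 in WT and 4.76 ± 0.334 in recent KO samples, and those ranges overlapped. *mt-Co3* contributed 33.1% ± 2.04 of the reads in WT and 32.7% ± 1.60 in recent KO samples, and *mt-Atp6* 20.95% ± 0.920 and 20.6% ± 1.13, all with overlapping ranges.

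*mt-Nd2* and *mt-Nd5* encode further proton-pumping subunits of complex I. *mt-Nd2* ranged from 207 to 276 CPM in WT and from 217 to 306 CPM in recent KO samples, with a log2 fold change of 0.13 (SE 0.10, adjusted p = 0.741, edgeR). *mt-Nd5* ranged from 209.6 to 235 CPM in WT and from 176 to 229 CPM in recent KO samples, with a log2 fold change of -0.028 (SE 0.073, adjusted p = 0.938). Its sign turned with library size alone, in limma on TPM, without WT sample 3 and without recent KO sample 2, whose 176 CPM was the lowest value.

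*mt-Nd6*, the subunit encoded on the opposite strand, had the most negative estimate of the 10. It was at 99.2, 78.0, 118, 95.1 and 82.3 CPM in WT samples 1 to 5 and at 105, 67.6, 79.7, 82.3 and 81.6 CPM in recent KO samples 1 to 5. Only recent KO sample 2 lay below all WT samples and none lay above them. The log2 fold change was -0.18 (SE 0.12, 95% interval -0.44 to 0.081, adjusted p = 0.668). With 967 to 2027 reads per sample, *mt-Nd6* was the least sampled of the 10. Complex I genes as a group took 0.178% to 0.204% of all reads in WT and 0.205% to 0.247% in recent KO samples, ranges that did not overlap before normalization. After TMM they did, at 1720 to 2198 CPM in WT against 2013 to 2541 CPM in recent KO samples, with 2 recent KO samples above all WT samples. *mt-Nd1* was the most abundant gene of the group in every sample, so it weighs most in this sum. Of the reads of the 10 mRNAs it averaged 6.2% in WT and 7.0% in recent KO samples. The parts of *mt-Nd2* (1.48% and 1.48%), *mt-Nd4* (2.69% and 2.63%), *mt-Nd5* (1.40% and 1.25%) and *mt-Nd6* (0.605% and 0.483%) were not higher in recent KO samples. How many of all genes did not overlap before normalization was not counted.

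*mt-Cytb*, whose product carries electrons through complex III, differed little. It ranged from 1523 to 2034 CPM in WT and from 1614 to 2017 CPM in recent KO samples, with a log2 fold change of 0.060 (SE 0.095, 95% interval -0.14 to 0.26, adjusted p = 0.884, edgeR). *mt-Atp6* ranged from 2741 to 3890 CPM in WT and from 2976 to 3916 CPM in recent KO samples, with a log2 fold change of 0.10 (SE 0.12, adjusted p = 0.841). All recent KO values of *mt-Cytb* lay inside the WT range, and 1 of those of *mt-Atp6* lay above it.

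Of the complex IV genes, *mt-Co2* ranged from 1385 to 1988 CPM in WT and from 1721 to 2361 CPM in recent KO samples, with a log2 fold change of 0.18 (SE 0.12, adjusted p = 0.655). *mt-Co3* ranged from 3895 to 5988 CPM in WT and from 4860 to 6095 CPM in recent KO samples, with a log2 fold change of 0.11 (SE 0.12, adjusted p = 0.842, edgeR). In both genes the lowest of the 10 samples was WT sample 1. That sample was also lowest for *mt-Nd1*, *mt-Nd2*, *mt-Nd4*, *mt-Cytb* and *mt-Atp6*.

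**Figure D3:**
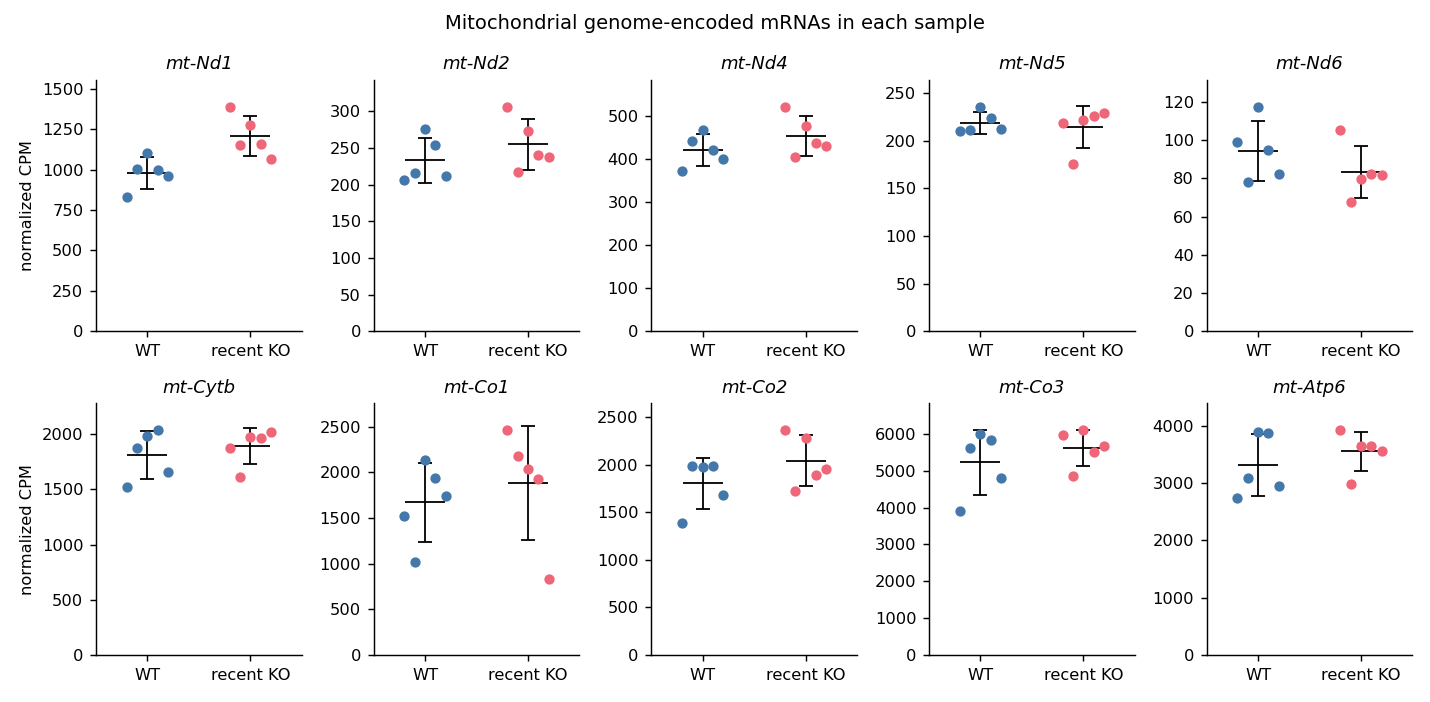
Normalized CPM (y axis, from 0) of each mitochondrial mRNA in the 5 WT (blue) and 5 recent KO (red) samples (x axis), drawn from sample 1 at the left to sample 5 at the right within a group; black lines are the mean and SD. All 10 genes overlap between the groups, mt-Nd1 has 4 recent KO samples above the WT range, and mt-Co1 has a low sample in each group (1019 and 830 CPM).

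Among the 10 mRNAs, *mt-Co1* varied far more between replicates than the rest. Outside the 10, the SD of *mt-Nd3* was 28.2% of its mean in WT and 38.3% in recent KO samples. The same measure was 25.7% and 33.0% for *mt-Co1*. The level of *mt-Co1* was 1521, 1019, 2134, 1936 and 1743 CPM in WT samples 1 to 5. In recent KO samples 1 to 5 it was 2458, 2181, 2039, 1921 and 830 CPM. WT sample 2 and recent KO sample 5 lay well below the rest, and no other mRNA of the 10 was the lowest of its group in both. The pooled within-group SD of log2 CPM was 0.53, against a median of 0.13 over the 326 genes with a mean of at least 500 CPM, and only 2 of these 326 genes, *Ly6c2* and *Gm29216*, varied more (named after their values were seen). The log2 fold change was 0.17 (SE 0.25, 95% interval -0.35 to 0.70, adjusted p = 0.870). It was 0.36 without recent KO sample 5, 0.041 without WT sample 2 and 0.060 without recent KO sample 1, and in none of these fits was it called.

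The low values were not shared by the next mRNA on the DNA. The ratio of *mt-Co1* to *mt-Co2*, which lies downstream, was 0.513 in WT sample 2 and 0.424 in recent KO sample 5. In the other WT samples it was 1.10, 1.08, 0.974 and 1.04, and in the other recent KO samples 1.04, 1.27, 0.895 and 1.02. The groups did not differ in this ratio beyond its spread, at 0.940 ± 0.244 in WT and 0.929 ± 0.312 in recent KO samples. Leaving *mt-Co1* out of the summed share gave 1.36% ± 0.127 of all reads in WT and 1.56% ± 0.132 in recent KO samples, with 4 of 5 recent KO samples above the highest WT sample.

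A pseudogene on chromosome 1 shares reads with *mt-Co1*. The annotation holds 7 copies of mitochondrial mRNAs at chr1:24611535-24616197 on the minus strand, 5 of them identical to the mitochondrial gene over the aligned bases, and 4 more elsewhere met the criteria of at least 95% identity over at least 100 bases. Together they cover 7 of the 10 mRNAs, and no copy met the criteria for *mt-Nd1*, *mt-Nd6* or *mt-Cytb*. *Gm29216* (chr1:24615706-24616197) matches bases 1063 to 1545 of *mt-Co1* with 99.8% identity and 1 mismatch over 483 bases. The mismatch, A1066T when counted from the first base of *mt-Co1*, lies near one end of the match, and the sequences from base 1063 to 1081 (chrM:6390-6408) are shown with the differing base in capitals.
mt-Co1: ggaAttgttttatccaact
Gm29216: ggaTttgttttatccaact
The match holds no other difference, so reads that fall inside it beyond this base carry nothing to place them by.

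Salmon assigned *Gm29216* 15941, 10364, 22512, 15132 and 17454 estimated reads in WT samples 1 to 5 and 24134, 15966, 25256, 18870 and 8861 in recent KO samples 1 to 5. This was 33.9% to 40.8% of the reads of *mt-Co1* and *Gm29216* together. The pseudogene was lowest in WT sample 2 and recent KO sample 5, as *mt-Co1* was, and the sum of both was lowest there too. With every mitochondrial mRNA summed with its copies, the log2 fold change of *mt-Co1* was 0.19 and 0 of the 10 were called. Copies of the other mRNAs among the 10 took less: *Gm10925* held up to 4.49% of the reads shared with *mt-Atp6*, *Gm28437* up to 1.26% of those shared with *mt-Co3*, *Gm28661* up to 0.278% of those shared with *mt-Co2*, and *Gm28439* held 0 reads beside *mt-Nd4*. The sums with copies took 1.63% ± 0.159 of all reads in WT and 1.88% ± 0.167 in recent KO samples.

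**Figure D4:**
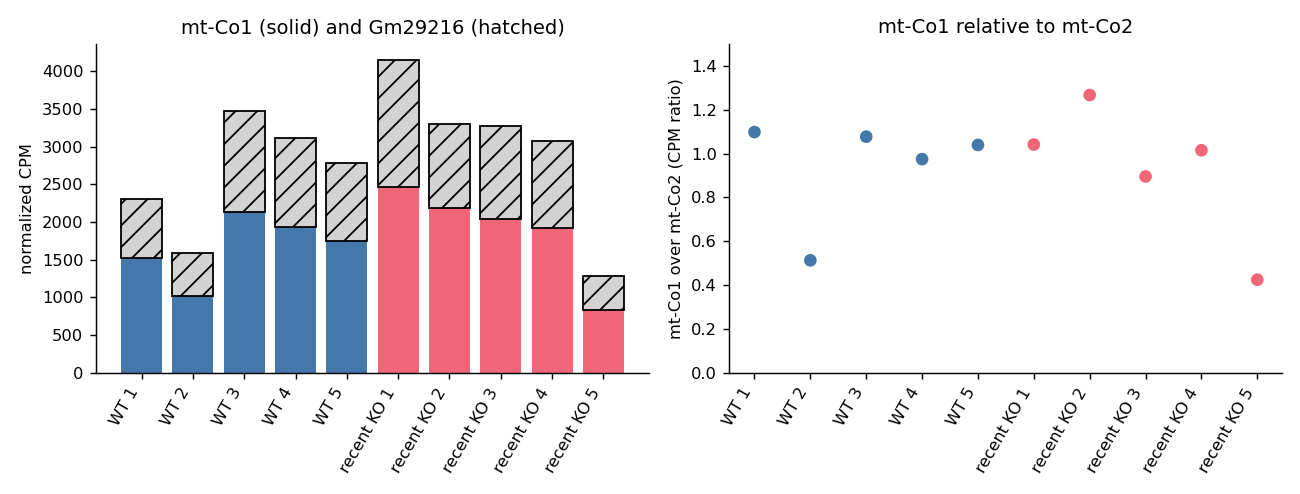
Left, normalized CPM of mt-Co1 (solid bars, blue for WT and red for recent KO) with Gm29216 stacked on top (hatched) in each sample; right, the ratio of mt-Co1 to mt-Co2 CPM in each sample. WT sample 2 (ratio 0.513) and recent KO sample 5 (0.424) lie below the other 8 samples, which range from 0.895 to 1.27.

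The mRNAs varied together across replicates, with *mt-Co1* apart. After subtraction of group means, Pearson correlations of log2 CPM over the 10 samples had a median of 0.64 over all 45 pairs (range -0.15 to 0.95). Without *mt-Co1* the 36 pairs had a median of 0.75 (0.27 to 0.95), whereas *mt-Co1* correlated with the other 9 at a median of 0.27. *mt-Co2* and *mt-Co3* were the most alike (r = 0.95), and *mt-Nd4* with *mt-Co2* and with *mt-Nd1* reached 0.92. These are descriptions: the 10 points share library preparation and normalization factors, and the genes share precursor RNAs.

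**Figure D5:**
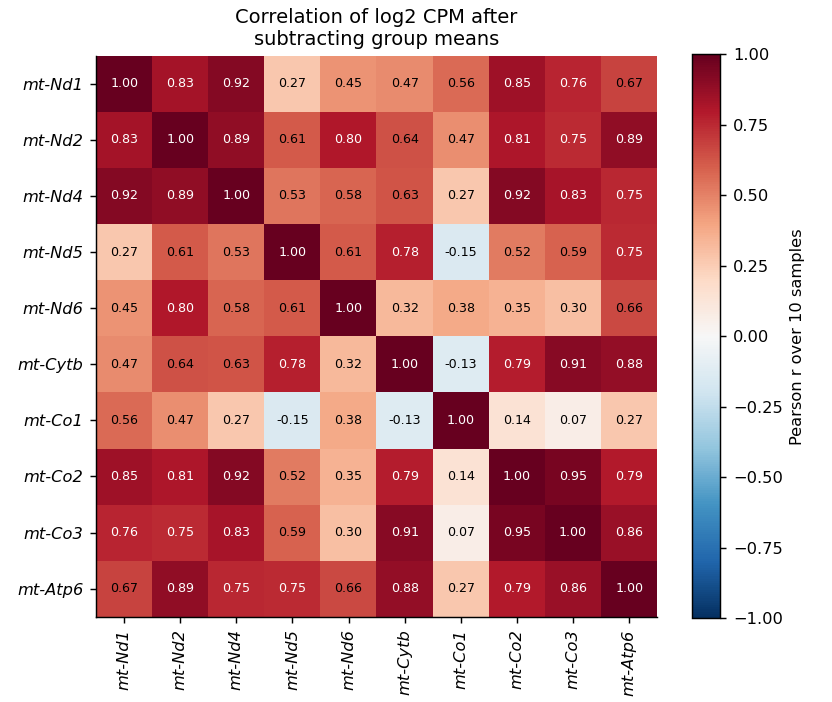
Pearson r of log2 CPM between the mitochondrial mRNAs over 10 samples after subtracting the group means (color scale from -1 to 1, values in the cells). The row of mt-Co1 runs from -0.15 with mt-Nd5 to 0.56 with mt-Nd1, while all other pairs lie between 0.27 and 0.95.

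None of the remaining RNAs of mitochondrial DNA was called. *mt-Nd3*, *mt-Nd4l* and *mt-Atp8*, the 3 mRNAs outside the 10, had log2 fold changes of 0.040, -0.086 and -0.12 with adjusted p of 0.974, 0.790 and 0.755 (edgeR). *Gm28438*, which differs from *mt-Nd3* by T3C alone over 345 bases, took 37.7% to 60.7% of their common reads, and summed with it *mt-Nd3* had a log2 fold change of 0.25 (adjusted p = 0.770). *mt-Atp8* is annotated at 204 bases but had an effective length of 22.5 to 26.2 bases, so its TPM of 9293 to 12060 was not ranked with the others. *mt-Atp8* and *mt-Atp6* also overlap by 43 bases, shown in capitals with 10 bases on either side (chrM:7917-7979, plus strand, M21), where a read within the overlap belongs to both.
mt-Atp8/mt-Atp6: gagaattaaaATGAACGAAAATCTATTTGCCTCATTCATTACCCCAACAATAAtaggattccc
The ribosomal RNAs *mt-Rnr1* and *mt-Rnr2* had log2 fold changes of 0.44 (SE 0.24, adjusted p = 0.573) and 0.17 (SE 0.18, adjusted p = 0.820), which became 0.23 and 0.0057 without recent KO sample 1, and took 0.0609% to 0.125% of the reads together. The 22 tRNA genes were listed at 0 reads in all samples.

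Nuclear genes for the same enzymes had small and mostly positive estimates. Of 73 nuclear subunits of complexes I, III and IV and ATP synthase, 0 passed an adjusted p under 0.05 in edgeR or in limma on TPM, and 1, *Ndufv2*, did in DESeq2. An unadjusted p under 0.05 was found for 5 of them in edgeR, where 10.2% of all genes had one, for 8 in DESeq2 and for 17 in limma on TPM. Of the 73, 63 had a log2 fold change above 0 in edgeR, and the median was 0.072. Among abundant genes at large there was no such majority, with 155 of the 319 nuclear genes at 500 CPM or more above 0 and a median of -0.0034. Over samples, after subtraction of group means, the 73 had a median correlation of 0.70 with the summed level of the 10 mitochondrial mRNAs, and 68 were positive, against medians of 0.54 for the 319 abundant genes and -0.030 for all 9730 genes ranked, those with mean counts of 50 or more. By complex the median correlation was 0.65 for the 36 genes of complex I, 0.61 for the 9 of complex III, 0.84 for the 11 of complex IV and 0.66 for the 17 of ATP synthase. The 4 subunits of complex II, the enzyme without a mitochondrial gene, had a median of -0.29 and a median log2 fold change of 0.050.

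Within these lists the smallest p belonged to *Ndufv2*, a subunit of the NADH-oxidizing arm of complex I, with 376 ± 20.5 CPM in the WT group and 445 ± 25.9 CPM in the recent KO group (log2 fold change 0.24, SE 0.061, adjusted p = 0.158, edgeR). Its groups did not overlap in normalized CPM, as for 2.43% of all genes. The adjusted p was 0.0139 in DESeq2 and 0.0432 in edgeR without recent KO sample 2, and reached 0.387 over the other alternatives. *Atp5g2*, a proton-carrying c subunit of ATP synthase, had a log2 fold change of 0.23 (adjusted p = 0.216), and *Ndufa4*, now counted with complex IV, 0.22 (adjusted p = 0.510). *Uqcrfs1*, the iron-sulfur protein of complex III, had 0.091 (adjusted p = 0.660), and *Sdhb* of complex II 0.11 (adjusted p = 0.541).

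Among 16 genes for the transcription and replication of mitochondrial DNA, 0 were called higher and 1 lower, and their median log2 fold change was -0.036. The gene called was *Polg*, the catalytic subunit of the mitochondrial DNA polymerase, with 19.3 ± 2.47 CPM in the WT group and 13.2 ± 1.13 CPM in the recent KO group (log2 fold change -0.54, SE 0.10, adjusted p = 0.0466, edgeR), without overlap between the groups. The call was close to the threshold and was lost in 14 of 23 alternative settings, with adjusted p from 0.00139 to 0.408. The log2 fold change was -0.36 with a transcript length offset and -0.24 and -0.29 in limma on TPM, and -0.60 to -0.47 in the other settings. *Polg* (chr7:79446231-79466362, minus strand) overlaps 4034 bases of *Fanci* on the other strand, and reads there cannot be assigned by strand. *Fanci* had a log2 fold change of -0.068 (adjusted p = 0.909). Of 18 genes for mitochondrial RNA processing and turnover 0 were called in edgeR, DESeq2 or limma and 0 had an unadjusted p under 0.05, with a median of 0.039. *Grsf1*, an RNA-binding protein of mitochondrial RNA granules, had the smallest p at 0.14 (adjusted p = 0.575). Of 7 regulators of nuclear mitochondrial genes tested 0 were called by any of these tools, and *Myc*, the 1 with an unadjusted p under 0.05 in edgeR, came first at 0.20 (adjusted p = 0.328).

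Among the nuclear genes whose levels followed the summed mitochondrial mRNAs most closely over the 10 samples, after subtraction of group means, were *Lars2* (r = 0.95), *Cox6a1* (0.95), *Atp5g1* (0.95) and *Rlim* (0.94). *Cox6a1* and *Atp5g1* encode subunits of complex IV and ATP synthase, and *Lars2* the leucyl-tRNA synthetase of mitochondria. The most opposed were *Gt(ROSA)26Sor* (-0.97), *Il31ra* (-0.96) and *Hibch* (-0.95). The genes named were picked as extremes of 9730 genes over 10 points, and none of them differed between the groups at an adjusted p under 0.05.

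Cell composition was checked with marker lists beside the summed level of the mitochondrial mRNAs. GMP markers were abundant in every sample, with *Mpo*, myeloperoxidase, averaging 61000 ± 7466 CPM in the WT group and 42410 ± 7537 CPM in the recent KO group. The 11 GMP markers summed to 90230 to 127500 CPM in WT and 53800 to 92180 CPM in recent KO samples, with a median log2 fold change of -0.38. In edgeR 0 were called (7 at an unadjusted p under 0.05, which 10.2% of all genes had), and in DESeq2 2 were called lower (*Mpo* and *Fcgr3*). Of the 11, 2 had a log2 fold change above 0, *Kit* (0.076) and *Cd34* (0.25), neither of them called. Macrophage markers summed to 16.1 to 31.3 CPM in WT and 34.6 to 60.6 CPM in recent KO samples. In edgeR 3 of 7 were called higher, the complement genes *C1qa*, *C1qb* and *C1qc* (log2 fold changes of 1.25, 1.35 and 1.59, adjusted p of 0.0406, 0.0160 and 0.0383). DESeq2 called *Cd5l* as well, and limma on TPM called *C1qb* alone of 5 tested. Of the 7, 6 had a log2 fold change above 0. *Adgre1* went the other way at -0.39 (adjusted p = 0.569, edgeR), and *Vcam1* had 0.18 (adjusted p = 0.862, edgeR). The 3 megakaryocyte markers tested were not called in edgeR, though DESeq2 called *Pf4* and all 3 had an unadjusted p under 0.05, and all 5 listed summed to 8.71 to 17.1 CPM in WT and 21.4 to 29.7 CPM in recent KO samples. The median log2 fold change of the 3 tested was 0.57. Erythroid markers, 6 of 8 tested, 0 called by edgeR, DESeq2 or limma and 4 at an unadjusted p under 0.05 in edgeR, summed to 8.17 to 41.2 and 23.3 to 204 CPM. All 6 had a log2 fold change above 0, with a median of 1.98. Late neutrophil markers summed to 113 to 424 and 106 to 745 CPM, with 0 of 7 called by edgeR or DESeq2 and 5 at an unadjusted p under 0.05 in edgeR. Their median log2 fold change was 1.53, with 6 of 7 above 0. Basophil and mast cell markers had a median of 0.31, with 3 of 5 above 0. In edgeR 0 of them were called, and DESeq2 called *Mcpt8* higher. The median was -0.20 for 3 lymphoid markers tested, 0 of them above 0. It was 0.32 for 4 stem cell markers, all 4 above 0, and edgeR called 0 on either list. A list of 10 handling response and nuclear RNA genes, with 9 tested and 0 called in edgeR (3 at an unadjusted p under 0.05) and *Malat1* called lower in DESeq2, summed to 566 to 1516 and 465 to 777 CPM, with a median log2 fold change of -0.59. None of the markers on these lists was at 0 in every sample. After subtraction of group means, the median correlation with the summed mitochondrial mRNAs was 0.082 for GMP, 0.070 for macrophage, 0.055 for megakaryocyte, 0.43 for erythroid and -0.28 for late neutrophil markers, and 0.56 for the handling list. It was 0.009 for basophil and mast cell, -0.26 for lymphoid and 0.072 for stem cell markers. Single markers were named after their values were seen. The part of these cells and of handling in the mitochondrial levels was not tested.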

How the data were processed

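CD45.2+ GMPs of 5 WT and 5 recent *Mpc2* KO samples were analysed by RNA-seq, grouped by the genotype in the labels. The authors made libraries with the SMARTseq V4 kit, read them as 150-base pairs and quantified transcripts with Salmon (1.5.1 in the submitters' processing notes) on Gencode M27. For each transcript the authors deposited an estimated count of reads and a TPM value. Their table of a DESeq2 (2.11.40.6) comparison, with mean counts, log2 fold changes, standard errors, test statistics and p-values, was not used.

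Transcripts were matched to GENCODE M21 (GRCm38) by Ensembl identifier without version, and 137161 of 140789 (97.4%) matched. The rest held 0.348% to 0.390% of reads. Estimated counts were summed per gene and rounded, and TPM summed. Lengths of all 37 mitochondrial transcripts were the same in the files and M21. Genes kept by filterByExpr (minimum count 10) were tested in edgeR 4.0.16 (R 4.3.3) by the quasi-likelihood test with TMM and Benjamini-Hochberg adjustment at 0.05 over 12381 genes, a method tested on simulated data. CPM are TMM-normalized. Alternatives used limma 3.58.1 on log2(TPM + 1) and log2(TPM + 0.1) and DESeq2 1.42.0. Copies were found with BLAST 2.17.0. Correlations used log2(CPM + 0.5). Counting error of the 10 mRNAs was small beside replicate spread, with at least 967 reads per sample; it ignores amplification, since reads carried no molecular identifiers. Replicates differed by a chi-square of 6.80 to 46.1 per gene, so each counted as 1 sample.

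Besides the 10 mRNAs, the text names the other mitochondrial mRNAs and rRNAs, the called or smallest-p gene of each nuclear list, and the 5 most and 3 least correlated genes whose mean count was 50 or more, of which 1 is not reported here. The mRNAs and lists were chosen with earlier results of these data known.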

Additional observations from a re-analysis of the deposited data

Results flagged for a closer look

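In 48 groups of 5 samples, 3 held a sample far from the other 4 by Dixon's test (2.4 are due by chance at 1 in 20). *mt-Nd5* was at 175.9 CPM in recent KO sample 2 while the rest of its group spanned 218 to 229 CPM. *Ndufa4* was at 855.5 CPM in the same sample and at 1191 to 1311 CPM in the others. *Atp5g2* was at 190.4 CPM in WT sample 3 and at 150.3 to 159.9 CPM in the other WT samples.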

How the results depend on the processing

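The median log2 fold change of the 10 mitochondrial mRNAs stayed positive in all 23 alternatives, from 0.054 to 0.16 with a sample left out and from 0.090 to 0.18 otherwise, and so did the log2 ratio of their read share in its 14 (0.16 to 0.24 and 0.16 to 0.21). None of the 10 was called in 20 of 23. With library size only, limma on log2(TPM + 1) and limma on log2(TPM + 0.1) the number called was 1, *mt-Nd1* in each. Genes called numbered 41. They were 206 with no filter on low counts, 156 in DESeq2, 25 and 24 in limma at the larger and smaller pseudocount, and 25 to 91 with a sample left out (91 without recent KO sample 2, 26 without WT sample 3, 25 without recent KO sample 3 or 4). Small estimates changed sign. *mt-Nd5* became 0.046 with library size only and 0.032 and 0.033 in limma, and ranged from -0.053 to 0.035 with a sample left out. *mt-Nd3* became -0.036 with a transcript length offset, -0.030 and -0.030 in limma, and ranged from -0.10 to 0.23 with a sample left out, and *mt-Atp8* became 0.028 in both limma fits. The cause was not tested. *Polg* held its sign in all 23, with log2 fold changes from -0.60 to -0.24. *Ndufv2* passed the threshold in DESeq2 and without recent KO sample 2.

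Same-numbered samples did not deviate together (correlations of -0.17 to 0.037 over 5 numbers). The labels do not say whether the numbers pair the samples, and the main fit did not pair them. The replicate block gave 20 called genes, 0 of the 10 mRNAs, a median of 0.11 and -0.022 for *mt-Nd3*. Among the 10 mRNAs the smallest count in a sample was 967 reads, for *mt-Nd6*. Among all mitochondrial mRNAs and rRNAs it was 233 reads, for *mt-Nd3*. Counting error, at most 3.2% for *mt-Nd6* and 6.6% for *mt-Nd3*, was below the replicate spread of these genes. Mapping to near-identical copies limits *mt-Co1* and *mt-Nd3*.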
